A study of Homo sapiens with 6 samples.

Results

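The transcripts described here are those of 9 complement genes, taken as C3, CFB, C1R, C1S, CFI, SERPING1, CD46, CD55 and CD59. They were found as every probe set that the HG-U133 Plus 2.0 annotation assigns to just one of these symbols, which gave 20 of the 54613 probe sets on the array, and the probe set with the highest mean signal led for each gene. Messenger RNA was measured on 6 arrays. The cells were labelled HepG2, which is an established human line from a liver tumour. The control group was 3 arrays of cells transfected with a negative control siRNA, and the other group was 3 arrays of cells given an siRNA against RNF43, a membrane ubiquitin ligase that restrains Wnt signalling. All cells received siRNA with Lipofectamine 2000, and RNA was taken 48 h later. One siRNA sequence per group was used, so the groups also differ in that oligonucleotide. The labels call the 3 arrays of a group biological replicates without naming separate cultures, so p-values rest on a spread between arrays that may be technical.

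The antisense strands of both siRNAs define the groups. They are shown 5′ to 3′ with bases 2 to 8, the seed, in capitals.
RNF43 siRNA: aUAAUAGCuuucuguucugtt
Negative control siRNA: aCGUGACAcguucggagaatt

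Complement is a cascade of plasma proteins, made largely by the liver, that marks microbes and damaged cells for removal. C1r and C1s are the serine proteases of the C1 complex and start the classical pathway. Factor B supplies the protease of the alternative pathway, and both routes cut C3, whose fragment C3b binds to surfaces. Factor I and C1 inhibitor, the product of SERPING1, hold the cascade back in plasma. CD46, CD55 and CD59 do so on the cell's own membrane, where CD46 helps factor I to cut C3b, CD55 breaks up the convertases and CD59 blocks the final pore.

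Signals are log2 values from MAS5, a summary of each probe set in which mismatch probes serve as local background. A probe set was tested if its mean log2 signal over the 6 arrays was above 5.83, the upper 50% of probe sets. RNF43, read by 1 probe set, did not follow the labels. It read 7.65, 7.79 and 7.45 on the control arrays and 8.19, 8.22 and 8.41 on the arrays labelled RNF43 siRNA, a rise of 1.56-fold (log2 difference 0.64, SE 0.15, limma adjusted p = 0.0188). This call was lost without control siRNA replicate 1, RNF43 siRNA replicate 2 or RNF43 siRNA replicate 3, and with both arrays numbered 3 left out (log2 difference 0.48, adjusted p = 0.0673, from 0.0098 to 0.0673 over all alternatives). Directions below compare arrays by their labels, and no loss of RNF43 mRNA was measured behind them. Arrays correlated across genes at 0.987 to 0.991 within a group and 0.975 to 0.98 between groups. The labelled cell type was also checked. Of 10 hepatocyte markers, 9 lay below the filter, among them ALB, which encodes albumin, with a log2 signal of 4.19 ± 0.32 on control arrays and 4.24 ± 0.07 on the others (SD, n = 3), as well as APOA1 and TTR. The fetal marker AFP was the tested one, at 7.01 ± 0.11 and 6.41 ± 0.26 (SD, n = 3, log2 difference -0.60, limma adjusted p = 0.107). The defining plasma protein markers of a hepatocyte were therefore not shown above the filter in these cells, and the cells are called by their label only.

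The proteases C1S and C1R, factor B and C3 fell on the arrays labelled RNF43 siRNA, while the tested probe sets of the membrane regulators CD46, CD55 and CD59 did not pass the test. The brightest probe sets of 7 of the 9 genes could be tested, and 4 of these fell and 0 rose in limma (adjusted p under 0.05 over all 27306 probe sets tested). Among the brightest probe sets of all 11853 genes tested, 9.42% fell and 9.77% rose, 19.2% in all. The 2 genes not tested, CFI and SERPING1, lay below the filter. Counted over all probe sets of the 9 genes, 16 of 20 were tested and 4 of them fell, against 15.5% called over the whole array, 7.55% lower and 7.9% higher. The groups did not overlap on 7 of the 16, with 5 lower and 2 higher, against 33.8% of all probe sets tested (16.8% lower and 17% higher). The share of cells that express a gene and its level per cell cannot be told apart in these bulk samples.

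**Figure D1:**
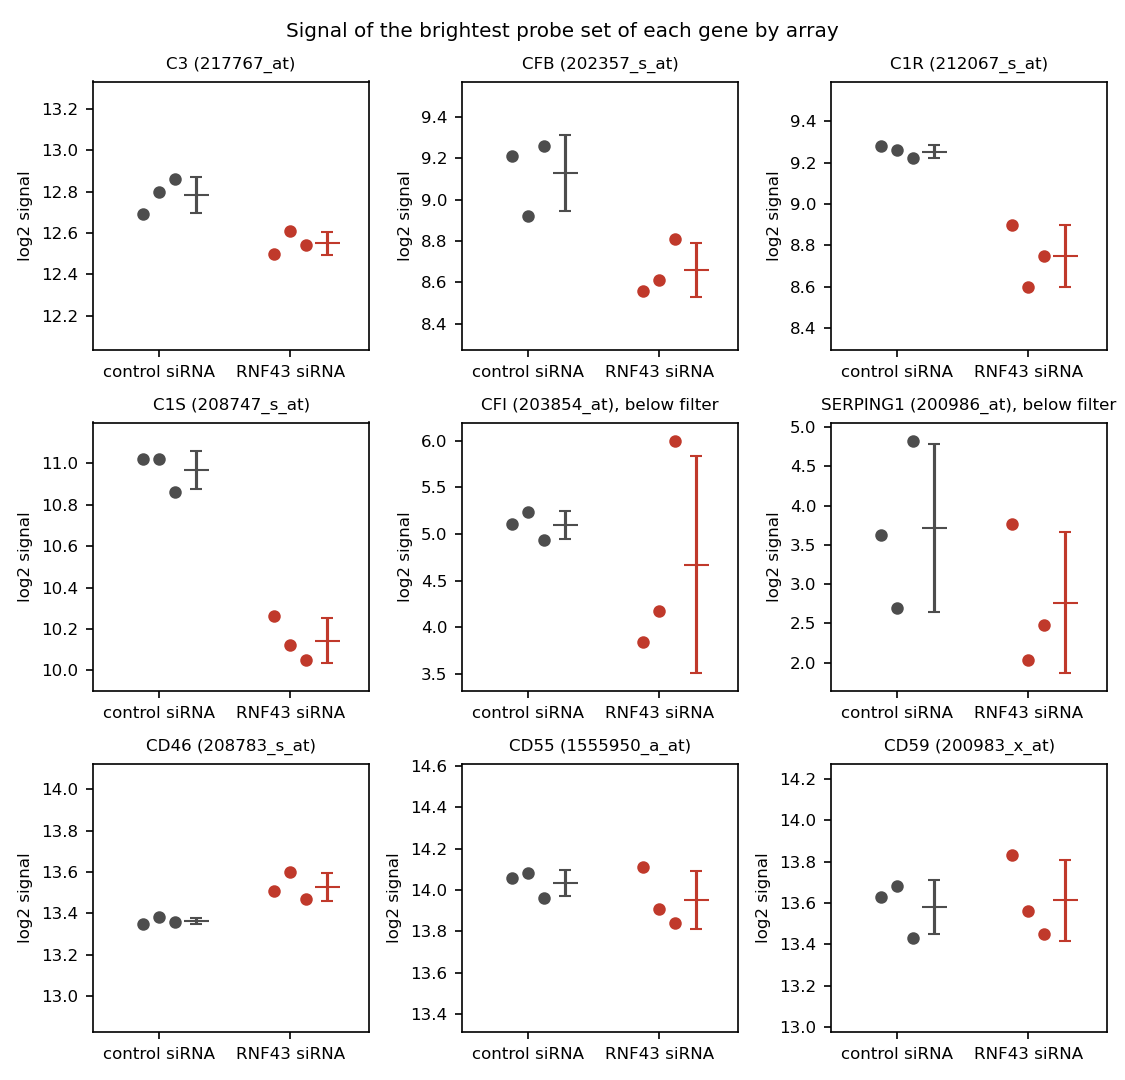
Log2 signal of the brightest probe set of each of the 9 genes on the 3 control arrays (grey) and the 3 arrays labelled RNF43 siRNA (red), with the mean and SD of each group as a bar beside the points. The red points lie below the grey ones for C3, CFB, C1R and C1S and above them for CD46, and the groups overlap for CFI, SERPING1, CD55 and CD59; each panel has its own axis.

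The promoters of CFB and C1R are shown because both transcripts fell and CFB and the second C1R start hold the motif TTCNNNGAA, the site read by activated STAT dimers, and the first CD59 window because it holds the motif while no CD59 probe set passed. Windows are the 250 bases before a transcript start in RefSeq (GRCh38.p14), which were matched for 6 of the 9 genes in 11 windows, with C3, C1S and SERPING1 unmatched. Sequences run 5′ to 3′ on the gene's strand, with matches of TTCNNNGAA in capitals.
CFB, chr6:31945845-31946094, plus strand: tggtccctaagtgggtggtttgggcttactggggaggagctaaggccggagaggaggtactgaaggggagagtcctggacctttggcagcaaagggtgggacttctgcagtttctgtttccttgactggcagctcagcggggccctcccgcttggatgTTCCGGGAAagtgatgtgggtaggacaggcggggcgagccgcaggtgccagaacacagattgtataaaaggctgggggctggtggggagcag
C1R, first start, chr12:7092446-7092695, minus strand: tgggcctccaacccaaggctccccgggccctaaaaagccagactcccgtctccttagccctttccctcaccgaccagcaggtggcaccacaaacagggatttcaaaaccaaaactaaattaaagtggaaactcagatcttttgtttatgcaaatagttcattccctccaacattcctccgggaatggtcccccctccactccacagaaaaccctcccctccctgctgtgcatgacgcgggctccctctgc
C1R, second start, chr12:7091894-7092143, minus strand: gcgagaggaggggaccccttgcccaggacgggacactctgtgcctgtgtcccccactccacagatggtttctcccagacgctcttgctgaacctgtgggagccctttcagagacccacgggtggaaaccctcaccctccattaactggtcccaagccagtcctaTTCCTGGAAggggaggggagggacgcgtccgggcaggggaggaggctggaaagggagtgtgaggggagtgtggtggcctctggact
CD59, first start, chr11:33736480-33736729, minus strand: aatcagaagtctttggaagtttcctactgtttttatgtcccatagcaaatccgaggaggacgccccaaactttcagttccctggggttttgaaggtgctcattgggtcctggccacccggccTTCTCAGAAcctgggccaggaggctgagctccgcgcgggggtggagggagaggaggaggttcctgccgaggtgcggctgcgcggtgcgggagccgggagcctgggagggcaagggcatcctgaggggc

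The CFB match, TTCCGGGAA, lay 92 to 84 bases before the start, and the C1R match, TTCCTGGAA, lay 86 to 78 bases before its second start. The CD59 match, TTCTCAGAA, lay 128 to 120 bases before the first start and was shared with an overlapping window. The motif was found on either strand in 6.57% of all 35116 promoter windows of this length, and in 0 of the 4 windows of CD46, CD55 and CFI. CFB also held TATAAA, the TATA box, as did 10.7% of windows. The CFB window further matched the core of the interferon-stimulated response element (ISRE), 140 to 131 bases before the start. The ISRE core was found in 3.02% of all windows and in no other window of these genes. Each C1R window and a further CD59 window held TTGCNNAA, a loose pattern of the C/EBP site found in 9.05% of windows. The windows of CD46 and CD55 and 1 of CD59 held GGGCGG, the GC box, as did 42.6% of all windows. These motifs were chosen after the values were seen, and a match is a description of letters, not of binding.

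C1S encodes the protease of the C1 complex that cuts C4 and C2. Its brightest probe set, 208747_s_at, read 11.02, 11.02 and 10.86 on the control arrays and 10.26, 10.12 and 10.05 on the arrays labelled RNF43 siRNA. The lowest control array was 0.60 log2 units above the highest of the others, so the groups were well apart. C1S fell 1.77-fold (log2 difference -0.82, SE 0.09, 95% interval -1.02 to -0.63, limma adjusted p = 0.000438). Its call held in the alternatives that tested this probe set by itself, with log2 differences of -0.88 to -0.78, and in the mean of both C1S probe sets (-0.99). With _x_at and _s_at probe sets removed it was not tested. The dimmer C1S probe set, 1555229_a_at, read 6.74, 6.67 and 7.34 against 5.15, 5.62 and 6.54. Its groups did not overlap either, although the third array labelled RNF43 siRNA came within 0.13 log2 units of the controls. Its log2 difference was -1.15 (SE 0.38) and did not pass (limma adjusted p = 0.0725), and without RNF43 siRNA replicate 3 it was -1.53 and passed (adjusted p = 0.0186, against 0.0151 to 0.19 over all alternatives). The difference between both C1S probe sets was -0.32 (SE 0.43, 95% interval -1.34 to 0.70, limma adjusted p = 0.797).

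C1R encodes the protease that activates C1s. The single C1R probe set, 212067_s_at, read 9.28, 9.26 and 9.22 on control arrays and 8.90, 8.60 and 8.75 on the others. All 3 control arrays sat within a narrow band (SD 0.03) that lay above the other group. C1R fell 1.42-fold (log2 difference -0.51, SE 0.11, limma adjusted p = 0.0149). Its call was lost without control siRNA replicate 1 (adjusted p = 0.0589), without control siRNA replicate 2 (0.0567) or without RNF43 siRNA replicate 2 (0.0604), with a range of 0.00633 to 0.0604 over all alternatives, while the log2 difference stayed between -0.58 and -0.43.

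C1S, C1R and C1RL are consecutive protein-coding genes on chromosome 12 in the RefSeq gene order of GRCh38.p14. C1RL, which encodes a C1r-like protease, fell 1.34-fold on its brightest probe set, from 9.40 ± 0.10 to 8.98 ± 0.06 (SD, n = 3, log2 difference -0.42, SE 0.10, limma adjusted p = 0.0218). A dimmer C1RL probe set differed by -0.06 on the log2 scale (SE 0.30) and did not pass, and the mean of both gave -0.24 with the call lost (adjusted p = 0.383, from 0.00854 to 0.383 over all alternatives). The call was also lost without control siRNA replicate 1, RNF43 siRNA replicate 1 or RNF43 siRNA replicate 2. On the far side of C1S, chosen after the values were seen, LPCAT3 differed by 0.25 (SE 0.15) and EMG1 by -0.08 (SE 0.07) on the log2 scale, and neither of them passed. RBP5, beyond C1RL, lay below the filter.

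CFB encodes factor B, the protease part of the alternative pathway convertase. Its brightest probe set, 202357_s_at, read 9.21, 8.92 and 9.26 on control arrays and 8.56, 8.61 and 8.81 on the others. The groups were 0.11 log2 units apart, set by control siRNA replicate 2 and RNF43 siRNA replicate 3. CFB fell 1.39-fold (log2 difference -0.47, SE 0.13, limma adjusted p = 0.037). This call was lost in 7 of 18 alternatives, with adjusted p = 0.13 without control siRNA replicate 1, 0.081 with control siRNA replicate 3 left out, 0.116 without RNF43 siRNA replicate 1 and 0.12 without RNF43 siRNA replicate 2 (range over all alternatives 0.0119 to 0.913). A second CFB probe set, 211920_at, lay below the filter, at 3.84 ± 1.47 and 4.14 ± 0.73 (SD, n = 3), and averaging it with the first gave a log2 difference of -0.08.

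C3 is the protein on which all routes of complement meet. Its single probe set, 217767_at, read 12.69, 12.80 and 12.86 on control arrays and 12.50, 12.61 and 12.54 on the others. The groups did not overlap, but they were 0.08 log2 units apart. C3 fell 1.18-fold (log2 difference -0.24, SE 0.07, 95% interval -0.39 to -0.08, limma adjusted p = 0.0451). This call was lost in 11 of 19 alternatives, among them each of the 6 fits without 1 array (adjusted p from 0.0611 without control siRNA replicate 1 to 0.142 with control siRNA replicate 2 left out), median centring of the arrays (0.0929) and quantile normalization (0.0698). Over all alternatives the log2 difference lay between -0.28 and -0.19 and the adjusted p between 0.0116 and 0.149.

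**Figure D2:**
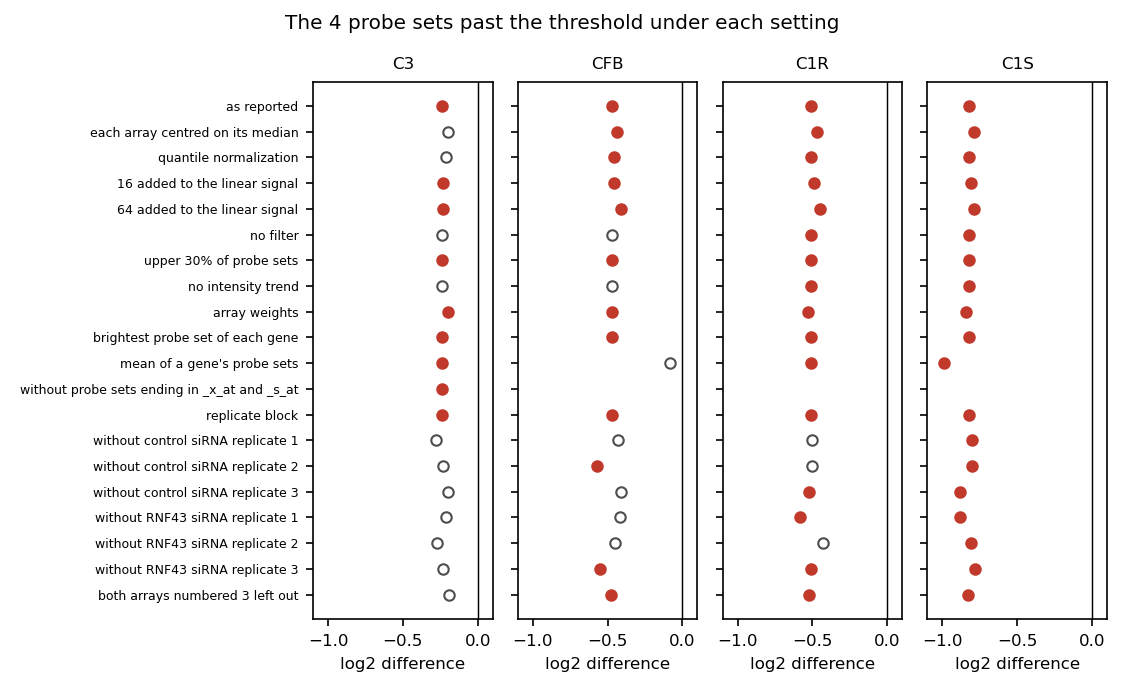
Log2 difference (RNF43 siRNA minus control siRNA) of the 4 probe sets that passed the threshold, under each processing alternative; filled red points have an adjusted p under 0.05, open points do not, and a missing point means that the probe set was not tested there. C1S passes in every setting that tested it, C1R loses the call in 3, CFB in 7 and C3 in 11.

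Both plasma inhibitor genes lay below the filter. CFI, the gene of factor I, read 5.11, 5.24 and 4.94 on control arrays and 3.84, 4.17 and 6.00 on the others on probe set 203854_at. The third array labelled RNF43 siRNA was the highest of all 6 and the other two were the lowest, so the groups overlapped. A further CFI probe set, 1555564_a_at, was dimmer, at 3.08 ± 1.88 and 3.48 ± 1.79 (SD, n = 3). SERPING1, whose product binds C1r and C1s and removes them from C1, read 3.63, 2.70 and 4.83 against 3.77, 2.04 and 2.48 on probe set 200986_at. Its groups overlapped too, and below the filter neither gene has a difference that was tested here.

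All 3 membrane regulator genes were above the filter on each of their 11 probe sets and 0 of these passed the test, with 2 having an unadjusted p under 0.05. CD46, a cofactor of factor I, read 13.35, 13.38 and 13.36 on control arrays and 13.51, 13.60 and 13.47 on the others on its brightest probe set, 208783_s_at. The groups did not overlap, at a difference of 1.12-fold (log2 difference 0.16, SE 0.06, 95% interval 0.03 to 0.29) that did not pass (limma adjusted p = 0.106, range over all alternatives 0.0469 to 0.29). With array weights it passed (adjusted p = 0.0471), as it did with replicate numbers as a block (0.0469). The other CD46 probe sets had log2 differences of 0.11 (SE 0.09) and 0.20 (SE 0.12), with overlapping groups.

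CD55, decay-accelerating factor, read 14.06, 14.08 and 13.96 on control arrays and 14.11, 13.91 and 13.84 on the others on its brightest probe set, 1555950_a_at. The first array labelled RNF43 siRNA was the highest of all 6, and the groups overlapped. The log2 difference was -0.08 (SE 0.08, 95% interval -0.26 to 0.09, limma adjusted p = 0.537). The other CD55 probe sets had log2 differences of -0.03 (95% interval -0.20 to 0.14) and -0.07 (95% interval -0.28 to 0.13). A fall of the size seen for C1S lies outside all 3 intervals. One of the size seen for C3 (log2 difference -0.24) lies inside those of -0.26 to 0.09 and -0.28 to 0.13. Whether the components and the membrane regulators differ in their group difference was not tested.

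CD59, which keeps C9 from forming the pore, read 13.63, 13.68 and 13.43 on control arrays and 13.83, 13.56 and 13.45 on the others on its brightest probe set, 200983_x_at. Its groups overlapped, with a log2 difference of 0.03 (SE 0.10, 95% interval -0.20 to 0.27, limma adjusted p = 0.876). Probe set 200984_s_at, by contrast, read 12.94, 13.01 and 13.02 against 13.09, 13.13 and 13.15 with no overlap, yet at a log2 difference of 0.13 (SE 0.06) it missed the threshold (limma adjusted p = 0.169). The other CD59 probe sets had log2 differences of 0.06, 0.03 and 0.22. Where both lay above the filter, each further probe set of the 9 genes was set against the brightest one of its gene. Of these pairs, 0 of 9 differed in limma (adjusted p 0.75 to 0.988, and 0 with an unadjusted p under 0.05), against 1.09% of 10807 such pairs over all genes. The further probe sets of CFB and CFI lay below the filter and were not compared. Their log2 differences were 0.30 and 0.40, against -0.47 and -0.43 on the brightest probe sets.

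**Figure D3:**
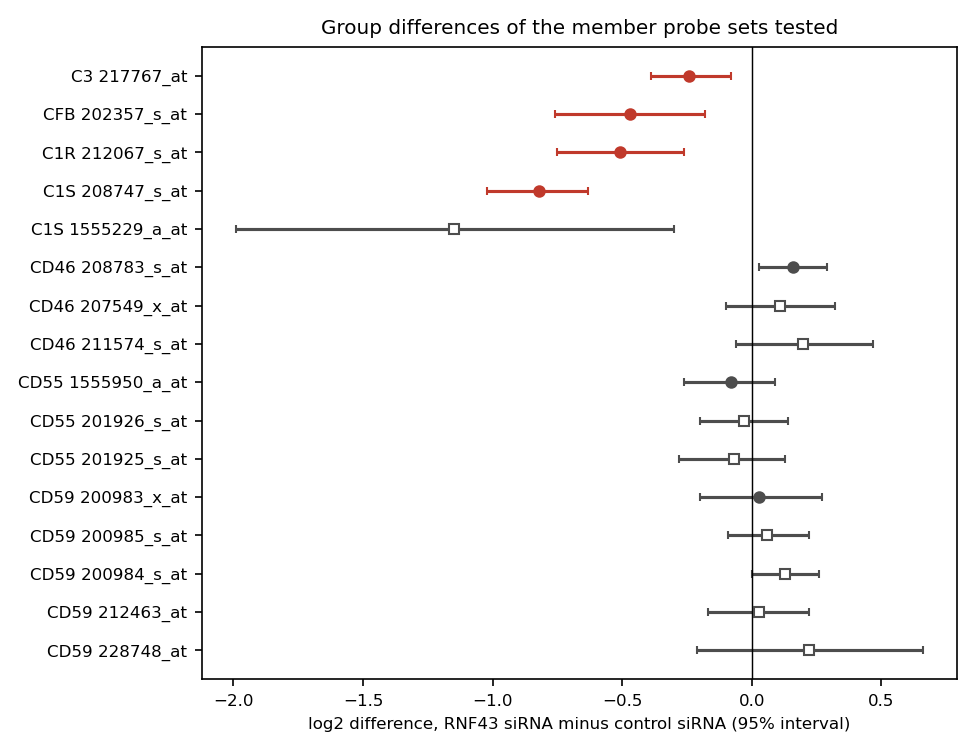
Log2 difference with its 95% interval for the 16 probe sets tested, circles for the brightest probe set of a gene and open squares for the others, in red where the adjusted p was under 0.05. The 4 red points lie left of 0, and the probe sets of CD46, CD55 and CD59 lie within 0.22 of 0.

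Of the 7 tested brightest probe sets, 5 had groups that did not overlap, 4 lower and CD46 higher, against 38.9% of all genes tested (19.8% lower and 19.1% higher). The members' values stand beside changes in genes used as markers of other cell types, read here in cells that all carry the HepG2 label. The fibroblast and stellate cell list had 6 of 9 genes tested, 3 of them lower and 0 higher (9.42% and 9.77% among all genes tested). COL3A1 was 2.54-fold, ACTA2 1.98-fold and DCN 1.46-fold lower. The summed linear signal of this list was 14722 to 14986 on control arrays and 11690 to 12905 on the others. LUM, at log2 signals of 13.36 and 13.17, was its brightest gene and weighed most in these sums. LUM did not pass (log2 difference -0.18, limma adjusted p = 0.123). DCN did not pass once its probe sets were averaged. Cholangiocyte markers had 4 of 6 tested, with KRT7, a keratin, 1.61-fold higher and SPP1, osteopontin, 3.53-fold lower. SOX9 and EPCAM had log2 differences of -0.40 and -0.37 that did not pass, and the median of the 4 was -0.38. The list summed to 9786 to 10162 and 13764 to 15760. KRT7, at log2 signals of 13.11 and 13.80, was its brightest gene and weighed most in these sums. It did not pass either once its probe sets were averaged. Macrophage and Kupffer cell markers had 0 of 10 tested (sums 198 to 211 and 192 to 309, CD163 at 0 on at least 1 array), endothelial markers 1 of 8 (229 to 236 and 239 to 292) and leukocyte markers 2 of 8 (270 to 337 and 243 to 387), with 0 changed in limma. The part of these markers in the complement results was not tested.

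Cytokine receptors and factors known to act on complement genes were read from a list chosen for this purpose. Of 16 genes tested, 5 were lower and 2 higher, against 9.42% lower and 9.77% higher among all genes tested. Their median log2 difference was -0.04 against -0.00 for all genes tested. STAT3, which carries interleukin 6 signals to acute phase promoters, fell 1.50-fold, from 11.79 ± 0.04 to 11.21 ± 0.06 (SD, n = 3, limma adjusted p = 0.000697), and 2 further STAT3 probe sets fell by 0.54 and 0.36 on the log2 scale. The dimmest tested STAT3 probe set differed by -0.33 and did not pass (limma adjusted p = 0.577). IL1R1, the interleukin 1 receptor, fell 2.18-fold (adjusted p = 0.000712) and IL6R, the interleukin 6 receptor, 1.67-fold (adjusted p = 0.00632). CEBPD, a C/EBP factor of the acute phase response, fell 1.33-fold (adjusted p = 0.0104), although averaging its probe sets (0.603) or leaving out control siRNA replicate 1 (0.0525) removed the call. Outside the naming rule and chosen after their values were seen, NFKB1 was 1.23-fold lower (limma adjusted p = 0.0209), and CEBPA was 1.42-fold higher (0.0362) and SOCS3, a cytokine feedback inhibitor, 1.32-fold higher (0.0409). With no filter CEBPA (0.057) and SOCS3 (0.0634) did not pass. IL6ST, the shared signalling chain, had a log2 difference of 0.19 that did not pass.

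**Figure D4:**
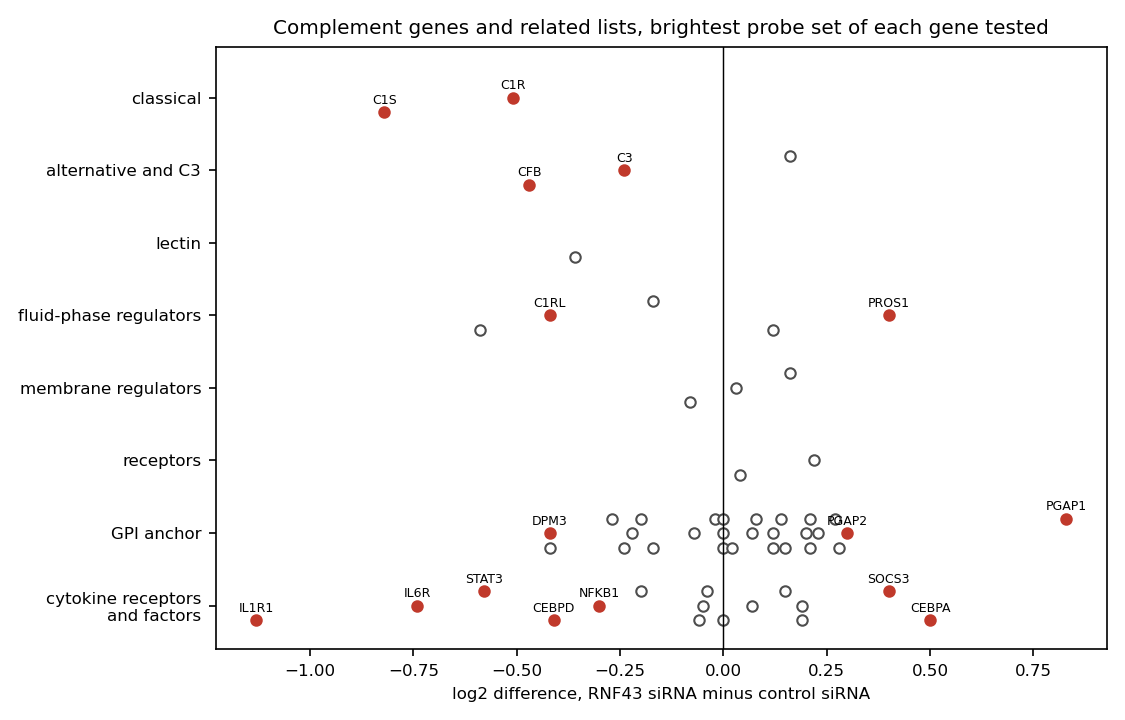
Log2 difference (RNF43 siRNA minus control siRNA) of the brightest probe set of each tested gene in 8 gene lists, filled and named where the adjusted p was under 0.05. C1S, C1R, CFB, C3 and C1RL lie left of 0 and PROS1 right of it, and the 3 membrane regulators are open points near 0.

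The rest of the complement system was mostly below the filter. Of 51 other complement genes listed, 44 were matched, 9 were tested, and C1RL fell while PROS1 rose, a share near the 19.2% called among all genes tested. PROS1, protein S, which circulates bound to C4b-binding protein, rose 1.32-fold from 11.06 ± 0.16 to 11.46 ± 0.04 (SD, n = 3, limma adjusted p = 0.016), a call that was lost without control siRNA replicate 1, control siRNA replicate 2 or RNF43 siRNA replicate 2 and with no intensity trend (range 0.00146 to 0.0693 over all alternatives). The median log2 difference of these 9 genes was 0.04. C4BPB, the beta chain of C4b-binding protein, had a log2 difference of 0.12 (SE 0.06), CLU, clusterin, one of -0.17 (SE 0.06) and CFD, factor D, one of 0.16 (SE 0.13), and none of them passed. Of the classical pathway list C1R and C1S were tested, and C1QA, C1QB, C1QC and C2 lay below the filter. The lectin pathway had 1 of 8 genes tested, MASP1, which did not pass, and the receptors 2 of 10, ITGB2 and C1QBP, which did not pass either. Of the 7 genes of the terminal pathway, which forms the pore that CD59 blocks, 0 were tested.

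CD55 and CD59 are held in the membrane by a glycosylphosphatidylinositol (GPI) anchor, so the genes that make and attach it were read as well. Of 27 tested, 2 rose and 1 fell, a smaller share than the 19.2% called among all genes tested, with a median log2 difference of 0.07. DPM3, which holds dolichol-phosphate mannose synthase in the membrane, fell 1.34-fold (log2 difference -0.42, SE 0.08, limma adjusted p = 0.00984). PGAP1, which trims the finished anchor, rose 1.78-fold on its brightest probe set, but its other 2 tested probe sets had log2 differences of -0.12 and -0.23 and the call was lost with the mean (adjusted p = 0.529). PGAP2, another anchor remodelling gene, rose 1.23-fold (adjusted p = 0.0255). The calls of PGAP1 and PGAP2 were each lost in 5 alternatives. PIGA, of the first step, had a log2 difference of 0.20 that did not pass.

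The genes whose values over the 6 arrays lay closest to those of C1S, after each gene's control mean was subtracted, were DDIT3, STYXL1 and GGACT, among 11852 genes compared. DDIT3 encodes the stress transcription factor CHOP. Their root mean square differences from C1S were 0.0539, 0.0553 and 0.0562 log2 units. DDIT3 fell 1.71-fold, STYXL1 1.78-fold and GGACT 1.77-fold, beside 1.77-fold for C1S, a likeness that follows from how these genes were picked.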

How the data were processed

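Values came from the deposited table of 54613 probe sets on 6 arrays, whose columns were matched to groups by sample title. Per the submitters' processing notes the authors used MAS5, with no version or target in the sources used here. The deposited values are log2 signals, a base read from the values. After dropping 2% at either end, linear means were 497.03 to 497.23, so arrays had been scaled before deposit, which would hide a shift of all transcripts. Detection calls were not used here.

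Gene symbols are those of the platform annotation, brought up to date with RefSeq (GRCh38.p14). Of the probe sets, 41091 named 1 gene, 1801 several, and 11721 were unnamed here. The test was limma 3.58.1 (R 4.3.3), lmFit followed by eBayes with trend, two-sided, over the 27306 probe sets in the upper 50% by mean, with p-values adjusted by Benjamini-Hochberg and called under 0.05. Probe sets of 1 gene that passed the filter were compared by fitting their difference per array. Steps were tested on simulated data. The number of arrays limits the precision.

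The 9 genes, the 17 gene lists (163 of 182 genes matched) and the tests were chosen with earlier results of these data known. Named were all 9 genes, RNF43, up to 4 changed genes per list by smallest p, and the 3 genes closest to the member with the smallest p. Alternatives covered normalization, added signal (16 or 64), filters, the variance trend, array weights, how probe sets stand for genes, replicate numbers as a block and leaving out arrays. The planned fits were run as written.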

Additional observations from a re-analysis of the deposited data

How the results depend on the processing

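Of the 4 calls among the 9 genes, that of C1S 208747_s_at held wherever it was tested. With _x_at and _s_at probe sets removed it was not tested, the other C1S probe set did not pass (adjusted p = 0.0778), and the call left was C3 (0.0479). The count of 4 was 2 with no filter, 2 with no intensity trend, 1 with _x_at and _s_at probe sets removed (5 tested) and 1 to 4 without 1 array. The 6 complement list genes called became 3 with no intensity trend, 2 with _x_at and _s_at probe sets removed, and 1 to 5 without 1 array. Over the whole array, 4219 of 27306 probe sets tested were called. This count became 2787 with no intensity trend and 2238 to 4465 without 1 array. It was 5639 with array weights and 5238 with both arrays numbered 3 left out. Other settings tested fewer units. The calls were 2684 of 11853 with the brightest probe set of each gene and 1587 of 10605 with probe sets averaged per gene. With _x_at and _s_at probe sets removed they were 2491 of 19557. The share of the 4219 calls that were higher was 51.1%, and after median centring the share was 60.6%. The 118 pairs of probe sets that differed within a gene became 288 with 64 added to the linear signal, 257 in the upper 30% of probe sets, 8 to 36 without 1 array and 0 with no filter in limma, where 2027 had an unadjusted p under 0.05. Small differences of probe sets that did not pass changed sign. CD55 201926_s_at was 0.00 after median centring of each array and -0.08 to 0.03 without 1 array, CD55 201925_s_at -0.14 to 0.01, CD59 200983_x_at -0.08 to 0.11 and CD59 212463_at -0.02 to 0.11. The cause of these changes was not tested, beyond the fewer arrays or probe sets that some alternatives hold. Signals near background limit CFI, SERPING1 and the dimmer CFB probe set. Arrays with the same replicate number deviated together at r = 0.192, 0.0781 and 0.307, and 5 of 6 correlated best with their own number. The arrays may therefore be paired by number, which the labels do not state, and the main fit used no block. With a replicate block the counts were 6370 probe sets, 6 of the 9 genes' probe sets, 8 complement list genes and 14 pairs. The 2 probe sets of these genes gained were C1S 1555229_a_at (adjusted p = 0.0151) and CD46 208783_s_at (0.0469).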

Other observations

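Acute phase genes, which share inducers with complement genes in liver, were largely below the filter. Of 20 listed, 15 were matched and 2 tested, HPX, the gene of hemopexin, which differed by 0.96 on the log2 scale (SE 0.34, limma adjusted p = 0.0929), and HAMP, hepcidin, by 0.04 (SE 0.28). Neither passed, and CRP, HP, FGA, FGB and FGG were below the filter. Of the contact and fibrinolytic proteases that C1 inhibitor meets or that act beside them, 3 of 7 were tested. PLAU, urokinase, rose 1.48-fold from 7.81 ± 0.07 to 8.38 ± 0.12 (SD, n = 3, limma adjusted p = 0.0191), a call that was lost in 4 of 18 alternatives. Those were the fits without control siRNA replicate 1, control siRNA replicate 2, RNF43 siRNA replicate 2 or RNF43 siRNA replicate 3. F12 and PLAT had log2 differences of 0.11 and 0.47 that did not pass.

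After CFB on chromosome 6 the RefSeq gene order has NELFE, which no single-gene probe set named, and then SKIC2. SKIC2, an RNA helicase that assists the exosome, differed by -0.37 on the log2 scale (SE 0.15) and did not pass. C2 and ZBTB12, on the other side, were below the filter. These neighbours were chosen after the values were seen.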
